A study of Homo sapiens with 8 samples.

Results

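DS7 and DS9 are 2 sublines of PC9-VU, each expanded from a single cell, and each is represented by 1 bulk RNA-seq library, so the comparison holds 2 of the 8 libraries of the study. PC9 is a human non-small cell lung cancer line that carries a deletion in exon 19 of EGFR and depends on that mutant receptor. The other 6 libraries come from the sublines DS3, DS6 and DS8, from the parent PC9-VU, from PC9-MGH, a stock of the line obtained separately, and from PC9-BR1, which was derived from PC9-VU under rising doses of the EGFR inhibitor afatinib and carries the EGFR mutation T790M. All cells were untreated and carried a red fluorescent label on histone H2B, both sublines and their parent are labelled free of T790M, and passages are given as 8 to 10. RNA was depleted of ribosomal RNA and selected for poly-A tails. DS7 and DS9 were chosen because the study sees almost no separation between their single cells. It does report that a very small share of DS9 cells, but not of DS7 cells, falls among those of DS8. From RNA of single cells the study also infers chromosome deletions shared by DS8 and DS9, and another shared by DS6, DS7 and DS9. These are mentioned below with the arms of those chromosomes. The question is whether and where the bulk RNA of DS7 and DS9 differs along the chromosomes. Each subline is 1 clone, so a difference between the libraries cannot be told apart from a difference between any 2 cultures, and no p-value is given.

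Cancer cell lines carry chromosomes in abnormal numbers, and cells of 1 culture can differ in the chromosome arms they have gained or lost. A subline grown from a single cell starts with the chromosomes of that cell. RNA of many neighbouring genes tends to follow the number of DNA copies, which is why methods that infer copy number from RNA average over stretches of genes, but domains of chromatin and shared regulation can also move neighbours together. Bulk RNA does not tell a level that is lower in every cell from one that is lost in a share of the cells.

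The authors' read counts were scaled to CPM, a measure of each row relative to the size of its library, with the trimmed mean of M values (TMM), and every difference below is the log2 CPM of DS7 minus that of DS9 unless another pair is named. A value of 1 is a 2-fold difference. The named rows of the count table sum to 2902156 counts in DS7 and 3338900 in DS9, and the other libraries lie between 2717355 and 3497722. A row name does not identify the transcript that was counted, since 55 of the 81 rows named for ribosomal proteins, which every cell makes in large amounts, have a mean of under 10 counts. Markers of the cell line could therefore not be read, no single gene is interpreted, and rows are ordered by the hg38 position of the gene they are named for. How far the counted transcript lies from that position was not tested, so every arm and Mb value below is that of the named genes. The 4604 rows that averaged 50 counts or more over the 8 libraries were used, and 4584 of them could be placed on 41 arms, 40 of which hold at least 25 rows.

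Row by row, DS7 and DS9 were close. The median difference over the 4604 rows is 0.02, the middle 50% of rows lie between -0.20 and 0.22, and 83.8% are less than 0.5 apart. At least 2-fold apart are 120 rows, or 2.61%. Of these, 38 (0.825% of the rows tested) are higher in DS7 and 82 (1.78%) are higher in DS9, and 13 rows are 4-fold apart. The rows that are 2-fold apart are spread over 34 of the 41 arms, with at most 8 in any of them. Counting error limits the low rows. A row with 50 counts in DS7 and an equal level in DS9 has an exact 95% interval of -0.55 to 0.59 around a difference of 0, and with 1000 counts the interval is -0.12 to 0.12. Intervals of this kind cover counting error only. When the rows were split by mean count into 3 sets of near equal size, 67 rows of the lowest set were at least 2-fold apart, against 37 of the middle set and 16 of the highest.

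Along the chromosomes, larger differences in the median of neighbouring rows were gathered in few places. Rows were cut into 169 consecutive windows of 25 rows that do not cross from one arm into another. A window was called when its median was at least 0.25 in size and at least 18 of its 25 rows differed in that direction. Of the windows, 14 (8.28%) were called, 11 (6.51%) as higher in DS7 and 3 (1.78%) as higher in DS9. The 11 windows lie on 7p, 13q, 15q and 16q, and the 3 lie on 17p. The 155 windows that were not called have medians between -0.21 and 0.31, and 78.1% of them are within 0.1 of 0. The 1 window past 0.25 that was not called is the neighbour of the called window on 15q.

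**Figure D1:**
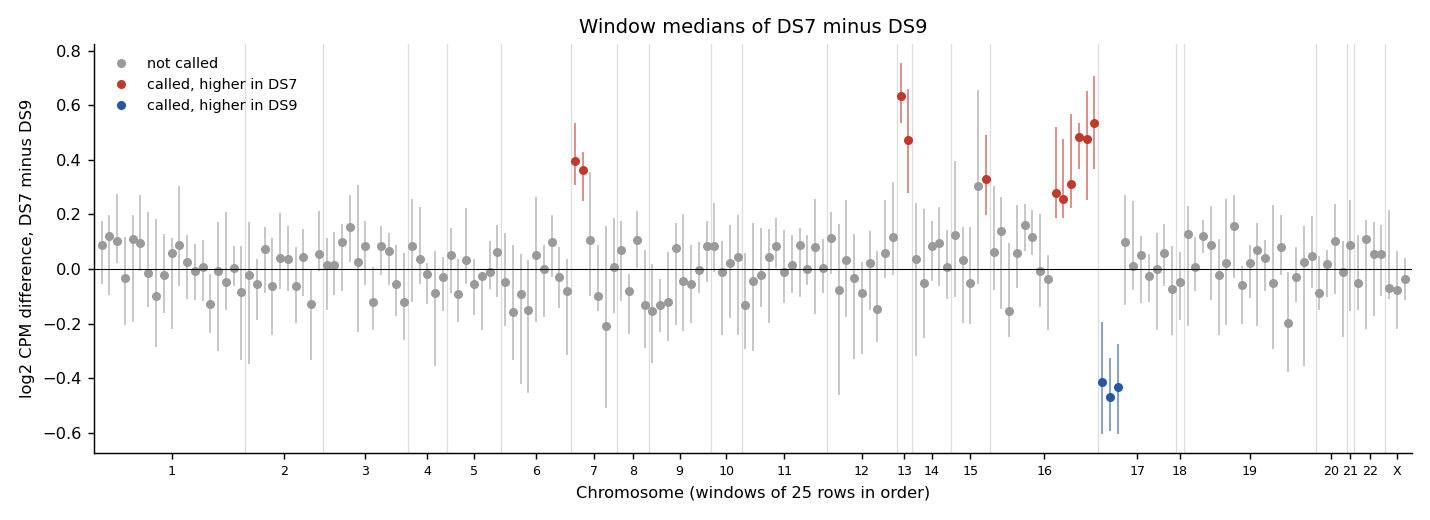
Median log2 CPM difference (vertical axis, DS7 minus DS9) of the 169 windows of 25 rows in genome order (horizontal axis, chromosome). Points are medians, and lines run from the 8th to the 18th of the 25 ordered rows. Red marks the 11 windows called as higher in DS7 and blue the 3 called as higher in DS9. The windows not called (grey) have medians between -0.21 and 0.31.

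An arm was called when its median was at least 0.1 in size and the 95% order-statistic interval of the median, which describes the spread over its rows and not over replicates, left out 0. Of the 40 arms, 4 (10%) were called as higher in DS7 and 2 (5%) as higher in DS9. The medians are 0.59 on 13q, 0.45 on 16q, 0.38 on 7p and 0.16 on 15q, and -0.43 on 17p and -0.12 on 9p. The next arms in order are 3p at 0.08 and 21q at 0.07 on the side of DS7, and 18p and 20p at -0.05 and 8p and 6p at -0.04 on the side of DS9. On the 34 arms that were not called, medians lie between -0.05 and 0.08.

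**Figure D2:**
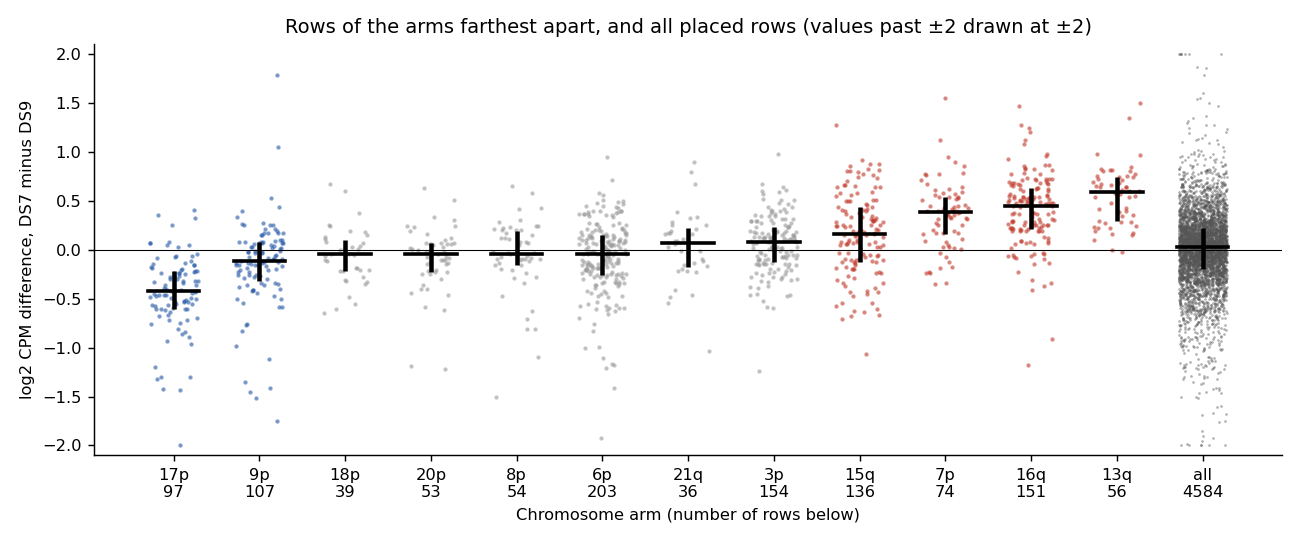
Log2 CPM differences of single rows (vertical axis, DS7 minus DS9) on the 6 arms with the lowest and the 6 with the highest medians, and for all 4584 placed rows (horizontal axis, with row numbers). Horizontal bars are medians and thick vertical bars span the middle 50% of rows; on 13q, 16q, 7p and 17p most rows lie on one side of 0.

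The long arm of chromosome 13, which carries the tumour suppressor RB1, was the arm farthest apart. Its 56 rows have a median difference of 0.59 (95% interval over rows 0.43 to 0.66), which is a 1.50-fold higher level in DS7, and 54 of them are higher in DS7, against 53.2% of all placed rows. The exact counting interval lies above 0 for 35 of the 56 rows (62.5%) and below 0 for 0, against 23.3% and 18.9% of all placed rows. The rows are 0.753% of the counts of DS7 (exact 95% interval 0.743 to 0.763) and 0.526% of those of DS9 (0.518 to 0.534). The share is 0.690% in PC9-VU, 0.732% in PC9-MGH, 0.818% in PC9-BR1, 0.720% in DS3, 0.750% in DS6 and 0.506% in DS8. DS9 and DS8 are thus the low libraries and DS7 lies within the range of the other 5. A single row holds 41.3% of the counts of the arm in DS7 and DS9, and in the median it weighs as 1 row.

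Measured from PC9-VU, the parent of both, the median of 13q is 0.18 in DS7 and -0.42 in DS9. It is 0.09 in DS3, 0.06 in DS6, -0.42 in DS8, 0.30 in PC9-BR1 and 0.13 in PC9-MGH. DS9 minus DS8 is 0.01 on this arm (interval over rows -0.17 to 0.17), while DS9 minus DS3 is -0.42 and DS9 minus DS6 is -0.43. On this chromosome the study infers, from single cells, a deletion shared by DS8 and DS9. The difference between DS7 and DS9 runs along the whole arm. The window from 19.2 to 49.5 Mb has a median of 0.63, with 24 of 25 rows higher in DS7, and the window from 50.9 to 113.1 Mb has 0.47, with 25 of 25. The last 6 rows, up to 113.7 Mb, have a median of 0.50. Rows with counts up to the median of the arm have a median difference of 0.44 and rows with more counts have 0.64.

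The long arm of chromosome 16, which carries the gene of the cell adhesion protein E-cadherin, holds the longest run of called windows. Over its 151 rows the median difference is 0.45 (interval over rows 0.36 to 0.49), a 1.37-fold higher level in DS7, and 133 rows are higher in DS7. At least 2-fold higher in DS7 are 6 rows (3.97%, against 0.825% of all rows), and 1 row is 2-fold higher in DS9. The counting interval lies above 0 for 97 rows (64.2%) and below it for 3 (1.99%), against 23.3% and 18.9% of all placed rows. All 6 windows of the arm were called, the first 2 close to the threshold of 0.25. With DESeq2 size factors, TMM factors from this pair only or centring on the median row 5 of the 6 were called, and with library totals or GC content corrected 4 were. From the centromere to the end of the arm their medians are 0.28, 0.26, 0.31, 0.48, 0.47 and 0.53. The short arm of the same chromosome differed little, with a median of 0.06 over 206 rows (-0.01 to 0.11) and window medians between -0.15 and 0.16.

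DS7 on 16q is near PC9-VU, with a median of 0.03 from it (-0.03 to 0.08), and DS9 is at -0.40 (-0.45 to -0.32). From PC9-VU, DS8 is at -0.39, PC9-MGH at -0.41, DS3 at 0.06, DS6 at 0.08 and PC9-BR1 at 0.14. Over the whole arm DS9, DS8 and PC9-MGH are therefore low, but they are not low in the same windows. In DS9 all 6 windows lie between -0.46 and -0.23 and in DS8 between -0.45 and -0.31, whereas PC9-MGH goes from -0.67 in the window from 46.6 to 57.5 Mb to 0.07 in the last window, which starts at 88.6 Mb. DS9 minus DS8 is -0.01 on 16q (-0.07 to 0.05). On this chromosome too, the study infers from single cells a deletion shared by DS8 and DS9. The 16q rows are 2.78% of the counts of DS7 (2.76 to 2.80) and 2.12% of those of DS9 (2.11 to 2.14). The share is 2.64% in PC9-VU, 2.68% in DS3, 2.84% in DS6, 3.02% in PC9-BR1, 1.90% in DS8 and 1.77% in PC9-MGH. A single row holds 20.6% of the counts of 16q in DS7 and DS9.

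**Figure D3:**
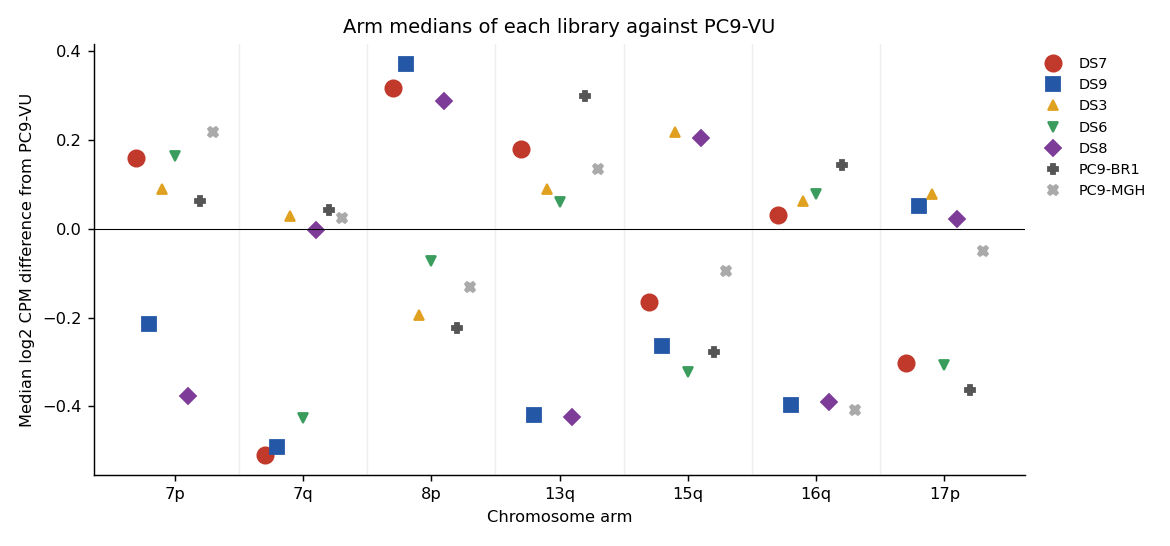
Median log2 CPM difference from PC9-VU (vertical axis) of the rows of 7 arms (horizontal axis) in each of the other 7 libraries, 1 symbol per library. DS9 and DS8 lie together below 0 on 13q and 16q, the latter with PC9-MGH, DS7, DS6 and PC9-BR1 lie together below 0 on 17p, and DS7 and DS9 lie together on 7q, with DS6, and on 8p, with DS8.

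On 7p, the short arm of the chromosome that carries EGFR, DS7 and DS9 lie on opposite sides of their parent. The median difference over 74 rows is 0.38 (0.31 to 0.43), a 1.30-fold higher level in DS7, and 64 rows are higher in DS7. From PC9-VU, DS7 is at 0.16 (0.12 to 0.21) and DS9 at -0.21 (-0.27 to -0.11). DS3 is at 0.09, DS6 at 0.16, PC9-BR1 at 0.06, PC9-MGH at 0.22 and DS8 at -0.38. Both windows of the arm were called, with medians of 0.40 from 0.2 to 6.6 Mb and 0.36 from 6.6 to 35.0 Mb, and the remaining 24 rows, from 35.6 to 56.1 Mb, have a median of 0.37.

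DS9 and DS8 are the low libraries of 7p as a whole but differ along it. In the first window DS9 is at -0.30 from PC9-VU and DS8 at 0.01. In the second window DS9 is at -0.21 and DS8 at -0.56. DS9 minus DS8 over the arm is 0.22 (0.01 to 0.38). The rows of 7p are 4.62% of the counts of DS7 (4.60 to 4.65) and 3.71% of those of DS9 (3.69 to 3.73), and 1 row holds 36.9% of the counts of the arm in these libraries. The share is 4.06% in PC9-VU, 5.00% in PC9-MGH, 4.53% in PC9-BR1, 4.52% in DS3, 4.51% in DS6 and 3.53% in DS8, so that DS8 and DS9 are the lowest. The level of EGFR itself is not read from any row.

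The short arm of chromosome 17 had lower levels in DS7, as did 9p by a smaller median. The median difference over 97 rows is -0.43 (-0.50 to -0.32), so that DS7 has 0.74 times the level of DS9, and 87 rows are lower in DS7. At least 2-fold higher in DS9 are 7 rows (7.22%, against 1.78% of all rows), and 0 are 2-fold higher in DS7. The counting interval lies below 0 for 67 rows (69.1%) and above it for 3 (3.09%), against 18.9% and 23.3% of all placed rows. The 3 windows of the arm were called, with medians of -0.41 from 0.2 to 4.0 Mb, -0.47 from 4.0 to 7.4 Mb and -0.43 from 7.4 to 9.8 Mb. The last 22 rows, from 9.8 to 21.3 Mb, have a median of -0.24, with 3 of 22 higher in DS7.

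Here it is DS7 that lies away from the parent. From PC9-VU, the median of 17p is -0.30 in DS7 (-0.39 to -0.24) and 0.05 in DS9 (0.00 to 0.11). It is -0.31 in DS6 and -0.36 in PC9-BR1, against 0.08 in DS3, 0.02 in DS8 and -0.05 in PC9-MGH. DS7 minus DS6 is 0.02 (-0.09 to 0.12) and DS7 minus PC9-BR1 is 0.04 (-0.02 to 0.13). The rows of 17p are 3.07% of the counts of DS7, 3.06% of those of DS6 and 3.19% of those of PC9-BR1, and 4.22% in DS9, 3.85% in PC9-VU, 4.04% in DS3 and 3.90% in DS8. PC9-MGH is at 3.29%, with a median of -0.99 from PC9-VU in the window from 7.4 to 9.8 Mb and of 0.10 and 0.12 in the windows before it. A single row holds 23.6% of the counts of 17p in DS7 and DS9. The long arm of chromosome 17 has a median of 0.01 over 179 rows between DS7 and DS9.

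**Figure D4:**
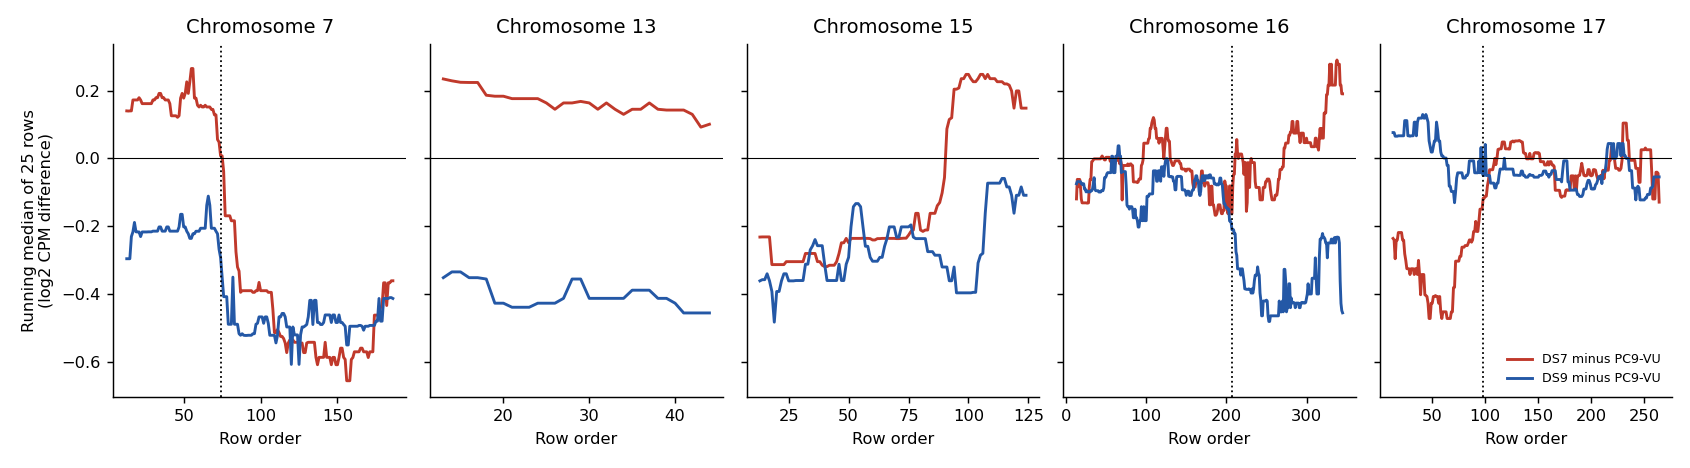
Running median over 25 rows of the log2 CPM difference from PC9-VU (vertical axis) in row order (horizontal axis) along 5 chromosomes, red for DS7 and blue for DS9, with a dotted line between the arms where rows lie on both. The lines lie apart on 7p, 13q, 16q, 17p and the end of 15q, and closer together on 7q, 16p, 17q and the first part of 15q. On 7q, windows of 25 rows have DS7 minus DS9 medians between -0.21 and 0.11, and none was called.

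Chromosome 15 differs over part of the arm. The median over 136 rows is 0.16 (0.07 to 0.25), with 88 rows higher in DS7 and a middle 50% from -0.12 to 0.44, a wider span than on the other called arms. The first 3 windows, up to 64.1 Mb, have medians of 0.13, 0.03 and -0.05. The window from 64.1 to 74.7 Mb has 0.31 with 16 of 25 rows higher in DS7, and the called window from 74.7 to 90.1 Mb has 0.33 with 22 of 25. No window of 15q was called when rows averaging 100 counts or more were used or in windows of 50 rows. The 11 rows after it have a median of 0.35, with 10 higher in DS7.

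Sets of 12 rows, a size chosen after the windows were seen, show where the sublines part on 15q. In the 7 sets from 27.8 to 65.4 Mb, the medians from PC9-VU lie between -0.32 and -0.18 in DS7 and between -0.50 and -0.12 in DS9. From 65.4 to 74.4 Mb DS7 is at 0.16 and DS9 at -0.48. From 74.5 to 78.1 Mb they are at 0.24 and -0.22, from 78.2 to 88.9 Mb at 0.24 and -0.01, and from 89.2 to 92.5 Mb at -0.01 and -0.22. Both sublines are thus below the parent over the first 7 sets, and DS7 is above it in the next 3 while DS9 is not. In the called window DS6 is at -0.62 from PC9-VU and PC9-BR1 at -0.33, while DS3 is at 0.24, DS8 at 0.13 and PC9-MGH at 0.12.

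The difference on 9p is small and no window of the arm was called. The median over 107 rows is -0.12 (-0.16 to -0.03), with 39 rows higher in DS7 and 68 lower. From PC9-VU, DS7 is at -0.01 and DS9 at 0.09. DS6 is at 0.11, PC9-BR1 at 0.08, PC9-MGH at 0.06, DS3 at 0.01 and DS8 at -0.02, so both lie among or close to the other libraries. The call was lost when rows averaging 10 counts or more were used, at -0.088, and after a correction for GC content, at -0.092.

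On some arms DS7 and DS9 lie on the same side of the parent. These comparisons share the library of PC9-VU, so their values are given side by side only. On 7q, over 124 rows, DS7 is at -0.51 from PC9-VU and DS9 at -0.49. DS6 is at -0.43 on this arm, against 0.03 in DS3, -0.003 in DS8, 0.04 in PC9-BR1 and 0.02 in PC9-MGH. By window, DS3, DS8 and PC9-BR1 lie between -0.04 and 0.16 in each of its 4 windows. In these windows DS7 lies between -0.61 and -0.40 from PC9-VU and DS9 between -0.52 and -0.47. Between DS7 and DS9, the window medians along 7q are 0.11, -0.10, -0.21 and 0.01. They differ in sign, and none of these windows was called. From single cells the study infers a deletion on this chromosome in DS6, DS7 and DS9 that DS3 lacks. It also lists a deletion of DS8 on this chromosome, and it names no arm for either. On 8p, over 54 rows, DS7 is at 0.32 from PC9-VU, DS9 at 0.37 and DS8 at 0.29, against -0.19 in DS3, -0.07 in DS6, -0.22 in PC9-BR1 and -0.13 in PC9-MGH. On 10p, with 27 rows, DS7 is at 0.26 and DS9 at 0.23, against 0.12 in DS6, 0.09 in DS8, -0.54 in DS3, -0.43 in PC9-BR1 and -0.49 in PC9-MGH. On 20q DS7 is at -0.16 and DS9 at -0.19, with -0.10 in DS6, -0.06 in DS8, 0.10 in DS3, -0.34 in PC9-BR1 and -0.50 in PC9-MGH. On 21q DS7 is at -0.18 and DS9 at -0.30, with -0.38 in DS6, -0.49 in DS8, 0.30 in DS3, -0.41 in PC9-BR1 and -0.21 in PC9-MGH. On 20q and 21q most of the other libraries are thus below the parent too, and some are farther from it. Between DS7 and DS9, the medians of these arms are 0.00 on 7q, -0.04 on 8p, 0.07 on 10p, 0.03 on 20q and 0.07 on 21q.

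Among the 10 pairs of sublines, DS7 and DS9 have the fewest rows at least 2-fold apart, at 120, and the other 9 pairs have between 136 and 379. The span of the middle 50% of rows is 0.416, the narrowest of the 10, and the others lie between 0.419 and 0.607. By windows the pair is not the closest. DS6 and DS7 have 7 called windows and 164 rows at least 2-fold apart, DS7 and DS9 have 14 and 120, and DS6 and DS9 have 22 and 136. The 3 largest numbers of called windows, up to 42 for DS6 and DS8, belong to pairs with DS8. Each of DS3, DS6, DS7 and DS9 is closer to PC9-VU in rows than DS7 and DS9 are to each other, with 67 to 92 rows at least 2-fold apart, and has 9 to 19 called windows against it. These pairs share libraries and the libraries differ in depth, so the order is a description.

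**Figure D5:**
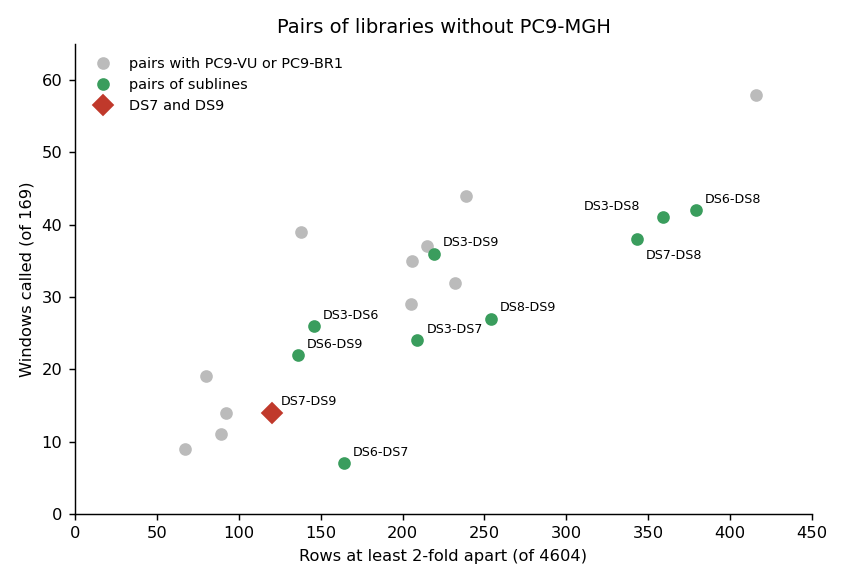
Number of rows at least 2-fold apart (horizontal axis, of 4604) against the number of called windows (vertical axis, of 169) for the 21 pairs of libraries that leave out PC9-MGH. DS7 and DS9 (red) have 120 rows and 14 windows, fewer rows than the other 9 pairs of sublines (green) and more windows than DS6 and DS7, which have 7.

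Of the 120 rows at least 2-fold apart (2.61% of all rows), 28 lie on the 6 called arms, or 4.51% of their 621 rows. The other 92 are 2.32% of the 3963 rows of the other arms. The arms were called from these same rows, so the split is a description.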

How the data were processed

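Bulk RNA-seq counts of 8 PC9 populations, 1 library each, were used. The authors aligned reads with STAR (version 2.5.2b) to hg38, counted them with featureCounts (version 1.6.4) and deposited raw counts without normalization. The genes were those of the hg38 annotation that 10X Genomics supplies for Cell Ranger, by the study's methods. The strand setting is not given in the sources used here. Rows named X or X.number (8324 of 30988), which hold 4.30% of the counts of DS7 and 4.34% of those of DS9, were left out.

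For log2 CPM, edgeR (version 4.0.16, in R version 4.3.3) was run with TMM factors from all 8 libraries and a prior count of 2. Names were matched to GENCODE release 44 (hg38), 55 of the 4584 rows through RefSeq synonyms. Arm boundaries were written to 0.1 Mb from the known hg38 bands. The 359 rows left over at arm ends are in no window. Medians, intervals and figures used Python (version 3.11.15), and counting intervals are exact (Clopper-Pearson). The steps were tested on simulated counts in which all libraries shared a common profile, apart from known changes placed in DS7. The simulated counts held counting error only, without variation between cultures. They cannot show how often arms or windows of real cultures would be called.

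The pair, arms and alternatives were chosen with earlier results of these data known. By rule, no gene is named from a row, and the text names the 6 highest and 6 lowest arms, up to 8 called windows in each direction and runs of called windows. The other called windows belong to these runs. The values of 7q, 8p, 10p, 20q and the sets on 15q were added after they were seen. The alternatives covered the filter on low rows, normalization, prior count, fold, GC content, placement and window size.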

Additional observations from a re-analysis of the deposited data

Results flagged for a closer look

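The rows without a gene symbol were not used in the comparison and hold 4.30% of the counts of DS7 (exact 95% interval 4.28 to 4.32) and 4.34% of those of DS9 (4.32 to 4.36), above the share of 9.89e-05% and 8.59e-05% that 3 counts would be. They have no place on an arm. Of these rows, 346 have a mean of at least 50 counts, with a median difference of 0.05 (DS7 minus DS9, log2 CPM), 4 at least 2-fold higher in DS7 and 1 in DS9. No group has more than 1 library, and no sample was compared with others of its own group.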

How the results depend on the processing

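With 1 library per subline there is no replicate to leave out, and the order-statistic intervals describe how rows of an arm spread. No paired analysis was possible because each subline has 1 library and nothing was tested. In each of 11 alternatives 7p, 13q, 15q and 16q were called as higher in DS7 and 17p as higher in DS9, with medians between 0.53 and 0.64 on 13q, 0.39 and 0.47 on 16q, 0.32 and 0.38 on 7p, 0.10 and 0.16 on 15q, and -0.49 and -0.38 on 17p. The arms higher in DS9 number 2 in the main setting. They number 1 when rows averaging 10 counts or more were used or with GC content corrected, where 9p was lost, and 4 with library totals in place of TMM factors, where 18p and 20p were added. Library totals moved the median over all placed rows from 0.02 to -0.03. Leaving out rows placed by older symbols was chosen after seeing the data.

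Called windows number 11 higher in DS7 and 3 higher in DS9, of 169. They number 14 and 6 when rows averaging 10 counts or more were used, 6 and 3 at 100 counts, 5 and 1 in windows of 50 rows, and 20 and 6 in windows of 15 rows. With windows of 15 rows 1 window each on 19p, 19q and 21q was called, at 10 counts 1 on 2q, and with library totals 1 on 19q. At 100 counts and in windows of 50 rows no window of 15q was called. Rows at least 2-fold apart, 38 higher in DS7 and 82 higher in DS9, number 124 and 234 at 10 counts, 682 and 845 without a filter, and 22 and 47 at 100 counts, while 7 and 6 are 4-fold apart. The placed rows number 6424 at 10 counts and 3583 at 100 counts, against 4584 in the main setting. The share of rows 2-fold apart is therefore larger with the lower filter and smaller with the higher one. Why it changes was not tested, and depth limits the low rows.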

Other observations

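The differences between DS7 and DS9 are weakly correlated between neighbouring rows. Across 4543 pairs of adjacent rows on an arm, Pearson's r of the differences is 0.23, and across 3569 pairs of rows that are 25 rows apart it is 0.068. Without the 6 called arms it is 0.15 for adjacent rows and -0.011 for rows 5 apart. Adjacent rows share libraries, depth and base composition and can share reads of 1 transcript, and rows are not independent replicates. Of the rows at least 2-fold apart, 11 pairs are adjacent.

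The difference between DS7 and DS9 also has a weak relation to the level of a row, with a Spearman's rho of 0.093 across 4604 rows with the mean count and 0.052 across 4584 rows with the GC content around the named gene. The median difference is -0.03 in the lowest of 3 sets of rows split by mean count, 0.03 in the middle set and 0.06 in the highest.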
